A study of Mus musculus with 7 samples.

Results

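The genes described here are 10 genes through which the kidney collecting duct moves sodium and water: Scnn1a, Scnn1b, Scnn1g, Hsd11b2, Fxyd4, Aqp2, Aqp3, Aqp4, Avpr2 and Kcnj1. They were taken by symbol, as every probe set whose annotation lists exactly 1 of them, and they are 10 of the 18193 genes on the array that could be named this way. Between them they have 16 of the 34945 probe sets that list a single gene. Scnn1a, Scnn1b, Scnn1g, Hsd11b2, Fxyd4, Aqp2 and Avpr2 have 1 probe set each, Kcnj1 has 2, Aqp4 has 3 and Aqp3 has 4.

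Total RNA was measured on Affymetrix Mouse Genome 430 arrays, 7 in all. The mIMCD-3 sample was a single array of 1 subclone of a mouse inner medullary collecting duct line, which had reached confluency in DMEM culture medium. The other 6 arrays held tissue microdissected from embryonic kidneys at stage E12.5: ureteric bud tips, ureteric bud stalks and metanephric mesenchyme, with 2 biological replicates each. The tissue arrays had been published earlier and the mIMCD-3 array was added to them, with no hybridisation dates in the sources used here, so the cell line and any difference of its array's handling cannot be told apart. The mouse strain, the sex and the number of embryos per sample are not given in the sources used here. The sample titles name no mutation or drug treatment, and they state no genotype for the mice or the line.

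The ureteric bud is the epithelial tube that branches into the metanephric mesenchyme and later becomes the collecting duct. In the mature duct, sodium enters principal cells through the epithelial sodium channel ENaC and leaves through the sodium pump, while water crosses through aquaporins placed in the membrane under vasopressin. Aldosterone acts on the same cells through the mineralocorticoid receptor, which the enzyme encoded by Hsd11b2 shields from glucocorticoids by inactivating them. The data describe transcripts of this machinery at a stage before the kidney filters or concentrates urine.

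Levels below are log2 of the deposited array intensity, and a difference of 1 on this scale is a doubling of intensity. Differences between tissues were tested with limma in 1 fit of the 6 tissue arrays, adjusted by the Benjamini-Hochberg method over all 18193 genes, and a gene is called at an adjusted p under 0.05. Where a gene has several probe sets, the brightest one stands for it. Brightness differs between probe sets for reasons of probe design, so levels are compared between samples and not between genes. The array medians lay between 5.39 and 5.62, and values near or below them cannot be told from absent transcripts, because no detection calls were used. Scnn1a and Fxyd4 lay above the array median on all 7 arrays, Aqp2 and Kcnj1 on none, and the other 6 genes on some.

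The dissected samples carried the markers of their labels. All 7 measured ureteric bud markers were higher in tip than in mesenchyme and 6 were higher in stalk. Their summed intensity was 22216 to 24164 in tip and 11459 to 11621 in stalk, against 425 to 436 in mesenchyme. Markers of other cells were unequal between the bud samples: the summed intensity of 6 renal stroma markers was 947 to 1283 in tip, against 11961 to 12609.5 in stalk, and it was 11385 to 11970 in mesenchyme. The 6 endothelial markers summed to 514 to 562 in tip, 1482 to 1494 in stalk and 2161 to 2423 in mesenchyme, and the 5 measured erythroid markers to 1417 to 1618, 4337 to 4353 and 8820 to 9162. The 6 nephron progenitor markers summed to 567 to 670 in tip, 1279 to 1340 in stalk and 5485 to 6050 in mesenchyme. In mIMCD-3 the epithelial genes Cdh1 and Krt8 stood at 10.88 and 12.31, while the bud genes Ret, Calb1 and Gata3 stood at 4.12, 3.38 and 4.48. In tissue samples such as these, fewer cells of a type and less RNA per cell cannot be told apart.

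Of the 10 transport genes, 3 were called higher in stalk than in mesenchyme (Scnn1g, Scnn1b and Fxyd4) and none lower, where 5.54% of all genes were called (4.3% higher and 1.24% lower). In tip against mesenchyme, 3 were higher (Scnn1g, Scnn1b and Avpr2) and 1 lower (Hsd11b2), where 15.7% of all genes were called (7.38% higher and 8.37% lower). In tip against stalk, 2 were lower (Hsd11b2 and Fxyd4) and none higher, where 9.83% of all genes were called (6.97% lower and 2.86% higher). With the replicate number as a block, the count higher in stalk than in mesenchyme was 5, with Hsd11b2 and Avpr2 added, and the block raised that share of all genes to 6.77%. In the blocked fit 8.92% of all genes were higher and 11.7% lower in tip than in stalk, and 11.2% were higher and 12.8% lower in tip than in mesenchyme. At an unadjusted p under 0.05 in limma, 5 of the 10 were higher and 0 lower in stalk than in mesenchyme. By the same measure 4 were higher and 1 lower in tip than in mesenchyme, and 1 was higher and 2 lower in tip than in stalk. No share of all genes is given at that threshold, so these counts are not read as a result. The median difference of the 10 genes was 0.38 in stalk against mesenchyme, 0.33 in tip against mesenchyme and 0.10 in tip against stalk, beside -0.037, 0.015 and 0.065 over all genes. Stalk and tip were set against the same 2 mesenchyme arrays, and the 3 tissue comparisons share arrays in pairs. The remaining genes, Scnn1a, Aqp2, Aqp3, Aqp4 and Kcnj1, passed the test in none of the 3 comparisons.

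**Figure D1:**
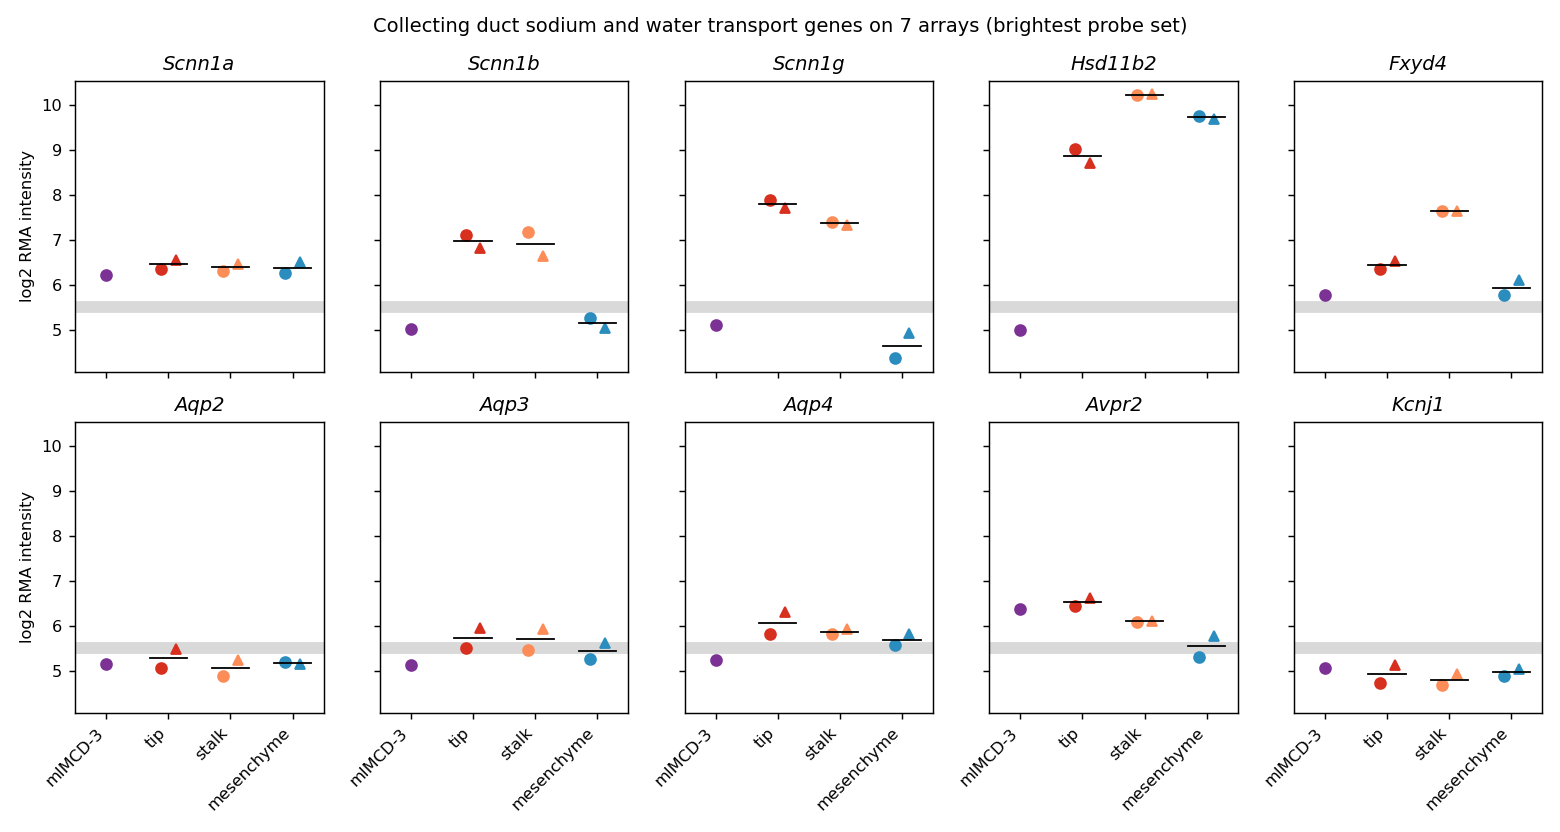
Level of each of the 10 genes on every array, as log2 intensity of the brightest probe set, with mIMCD-3 on the left, then tip, stalk and mesenchyme. Circles are replicate 1, triangles replicate 2, black bars group means and the grey band the range of the array medians, 5.39 to 5.62. Scnn1b and Scnn1g lie high in tip and stalk, Hsd11b2 lies high in all tissues, and Aqp2 and Kcnj1 lie at or below the band throughout.

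ENaC is built from alpha, beta and gamma subunits encoded by Scnn1a, Scnn1b and Scnn1g. The beta and gamma transcripts were high in the bud and low in mesenchyme, and the signal of the alpha probe set was level across the tissues. Scnn1g stood at 7.88 and 7.72 in tip and at 7.41 and 7.33 in stalk, against 4.37 and 4.93 in mesenchyme. Every bud array was above every mesenchyme array by more than the spread between replicates. Scnn1g was 8.88-fold higher in tip than in mesenchyme, a log2 difference of 3.15 ± 0.19 (SE, n = 2 arrays per group, limma adjusted p = 2.54e-05). In stalk it was 6.58-fold higher than in mesenchyme, by 2.72 ± 0.19 (adjusted p = 0.00017). Tip exceeded stalk by 0.43 ± 0.19, and this difference did not pass the test (adjusted p = 0.243).

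Scnn1b stood at 7.10 and 6.83 in tip and at 7.18 and 6.64 in stalk, against 5.26 and 5.04 in mesenchyme. The tip arrays lay between the stalk arrays, and all of these were above mesenchyme. The beta subunit was 3.52-fold higher in tip than in mesenchyme, by 1.81 ± 0.21 (SE, n = 2 arrays per group, limma adjusted p = 0.00064). It was 3.38-fold higher in stalk, by 1.76 ± 0.21 (adjusted p = 0.0021). The difference of tip from stalk was 0.058 (adjusted p = 0.895). The mesenchyme levels of Scnn1g and Scnn1b lay below the medians of both mesenchyme arrays, so the folds of either subunit rest on a level that cannot be told from background.

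Scnn1a, the subunit needed for the channel to conduct, stood at 6.36 and 6.55 in tip and 6.30 and 6.48 in stalk, against 6.26 and 6.50 in mesenchyme. The 3 tissues overlapped, and all values were above the array medians. Its single probe set stayed between 6.22 and 6.55 on all 7 arrays. A level transcript and a probe set that does not respond cannot be told apart. The difference of tip from mesenchyme was 0.073, with a 95% confidence interval of -0.28 to 0.42, and that of stalk from mesenchyme was 0.0075, with an interval of -0.34 to 0.36. Neither interval reaches the differences measured for the beta and gamma subunits.

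Scnn1g and Scnn1b lie next to each other on mouse chromosome 7, with 0 protein-coding genes starting between them in the RefSeq annotation of GRCm38.p6. Their promoter windows, the 250 bases before each RefSeq start, are shown because these are the neighbouring genes that were both higher in the bud. The Scnn1g window is chr7:121734229-121734478 and the Scnn1b window is chr7:121864788-121865037, both on the plus strand, with a GC content of 65.2% and 60.8% against a median of 52.4% over the 32851 windows in the table. Capitals mark matches to the GC box GGGCGG on either strand, so that CCGCCC is the same word read from the minus strand.
Scnn1g: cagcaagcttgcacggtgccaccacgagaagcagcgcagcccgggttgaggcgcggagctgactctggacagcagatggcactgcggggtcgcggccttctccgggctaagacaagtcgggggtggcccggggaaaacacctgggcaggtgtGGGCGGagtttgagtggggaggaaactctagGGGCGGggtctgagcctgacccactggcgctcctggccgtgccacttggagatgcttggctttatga
Scnn1b: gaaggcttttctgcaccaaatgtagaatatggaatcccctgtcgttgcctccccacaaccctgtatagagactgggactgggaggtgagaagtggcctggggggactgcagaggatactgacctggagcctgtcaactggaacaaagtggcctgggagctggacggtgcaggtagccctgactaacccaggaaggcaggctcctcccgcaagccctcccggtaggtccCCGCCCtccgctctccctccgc
Counted from the start, the leftmost base of the GC box lies at -98 and -67 in Scnn1g and, on the minus strand, at -22 in Scnn1b. The word occurs in 32.7% of all windows and in 4 of the 7 transport gene windows in the table. The longer words searched on both strands, AACCGGTT (Grainyhead factors, 0.116% of all windows), TGACGTCA (the cyclic AMP response element, 1.55%) and the palindromic glucocorticoid and mineralocorticoid receptor element (0.00913%), were found in 0 of these 7 windows. These are matches of letters and say nothing of binding.

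Hsd11b2 encodes 11-beta-hydroxysteroid dehydrogenase type 2, which converts active glucocorticoid to its inactive form. Its transcript was bright in all dissected tissues, including the mesenchyme, and its order ran stalk, mesenchyme, tip. The values were 9.02 and 8.70 in tip and 10.21 and 10.23 in stalk, against 9.76 and 9.69 in mesenchyme. None of the 3 tissues overlapped with another. Hsd11b2 was 2.57-fold lower in tip than in stalk, with a log2 difference of -1.36 ± 0.14 (SE, n = 2 arrays per group, limma adjusted p = 0.000937). Against mesenchyme it was 1.82-fold lower in tip, with a difference of -0.86 ± 0.14 (adjusted p = 0.00502). Stalk exceeded mesenchyme by 0.50 ± 0.14, which did not pass the test (adjusted p = 0.13) but did with the replicate number as a block (adjusted p = 0.033).

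Fxyd4 encodes a small membrane protein of the FXYD family, also known as corticosteroid hormone-induced factor, that associates with the sodium pump in the collecting duct. It was highest in stalk. Its levels were 6.36 and 6.53 in tip and 7.64 on both arrays of stalk, against 5.78 and 6.11 in mesenchyme. The stalk arrays stood clear of all others, and tip lay above mesenchyme without overlap. Fxyd4 was 2.30-fold lower in tip than in stalk, with a log2 difference of -1.20 ± 0.15 (SE, n = 2 arrays per group, limma adjusted p = 0.00213). It was 3.25-fold higher in stalk than in mesenchyme, by 1.70 ± 0.15 (adjusted p = 0.000564). Tip exceeded mesenchyme by 0.50 ± 0.15, which did not pass the test (adjusted p = 0.0683) but did with the replicate number as a block (adjusted p = 0.0142).

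The differences of Hsd11b2 and Fxyd4 between tip and stalk ran with the renal stroma markers, of which 6 of 6 were lower in tip. The highest of the marker sums in tip was 1283 and the lowest in stalk 11961. Endothelial markers were lower in tip too, 6 of 6, as were 5 of 6 nephron progenitor markers and 3 of 5 erythroid markers. The part of these cells in either difference was not tested. Between stalk and mesenchyme the 6 stroma markers did not move together: Tbx18 was higher in stalk, as Fxyd4 was, by 1.41 (limma adjusted p = 0.0306), Foxd1 was lower by a log2 difference of -1.18 (adjusted p = 0.00722), and the other 4 were not called. Their part in the Fxyd4 difference was not tested either. In tip against mesenchyme all 6 stroma markers were lower, where Hsd11b2 differed by -0.86 and Fxyd4 by 0.50, the latter not called in the main fit. The part of the stroma cells was not tested there.

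The Fxyd4 window is shown because the gene set the stalk apart from both other tissues. It is chr6:117937336-117937585 on the minus strand of GRCm38.p6, with a GC content of 58%, and capitals mark its GC box, whose leftmost base lies at -48.
Fxyd4: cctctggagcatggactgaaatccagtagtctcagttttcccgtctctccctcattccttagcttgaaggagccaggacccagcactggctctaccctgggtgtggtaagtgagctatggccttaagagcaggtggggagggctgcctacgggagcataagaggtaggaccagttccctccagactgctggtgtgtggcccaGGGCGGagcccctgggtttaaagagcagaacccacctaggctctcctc
The window holds neither the steroid receptor element nor the cyclic AMP response element named above.

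**Figure D2:**
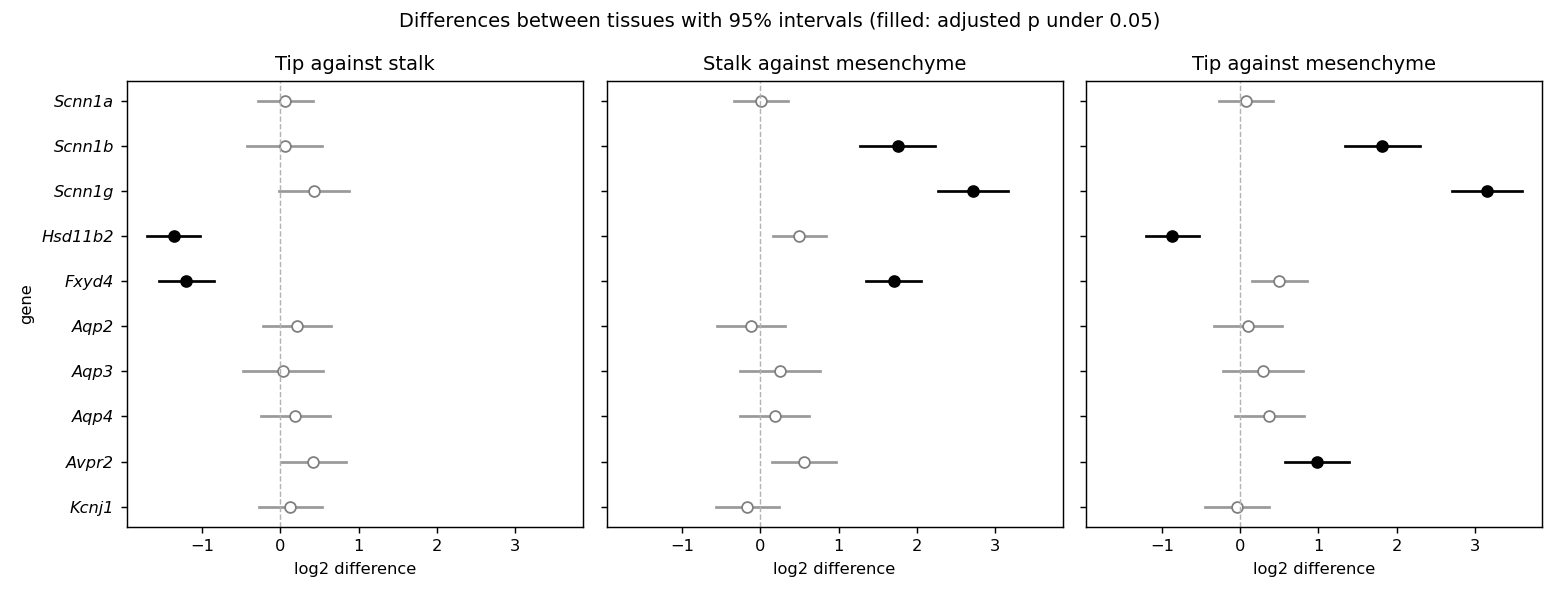
Log2 difference of each gene with its 95% confidence interval from the limma fit, in tip against stalk, stalk against mesenchyme and tip against mesenchyme. Filled points passed the test at an adjusted p under 0.05 over all genes. Scnn1g reaches 3.15 in tip against mesenchyme, and Hsd11b2 and Fxyd4 lie at -1.36 and -1.20 in tip against stalk.

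Aqp2 encodes the water channel that vasopressin sends to the apical membrane of principal cells, and Aqp3 and Aqp4 encode the channels of the basolateral side. No aquaporin among them passed the test on its brightest probe set. Aqp2 stood at 5.07 and 5.49 in tip and 4.88 and 5.25 in stalk, against 5.20 and 5.16 in mesenchyme. It was below the median of every array and the tissues overlapped. Its difference was 0.22 in tip against stalk (limma adjusted p = 0.545), -0.12 in stalk against mesenchyme (adjusted p = 0.893) and 0.10 in tip against mesenchyme (adjusted p = 0.853).

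Aqp3 stood at 5.52 and 5.94 in tip and 5.47 and 5.93 in stalk, against 5.27 and 5.61 in mesenchyme on its brightest probe set, 1422007_at. The tissues overlapped and the differences were 0.030 in tip against stalk and 0.29 in tip against mesenchyme (limma adjusted p = 0.952 and 0.537). A second probe set, 1450460_at, stood at 5.38 and 5.04 in tip and 5.45 and 5.50 in stalk, against 4.67 and 4.81 in mesenchyme. There the bud arrays were all above the mesenchyme arrays, and stalk exceeded mesenchyme by 0.73 ± 0.16, which fell short of the threshold over all 45037 probe sets (adjusted p = 0.0542). The remaining probe sets of Aqp3 stayed between 2.73 and 3.32 on all arrays.

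The probe sets of Aqp4 disagreed. The brightest, 1447745_at, stood at 5.81 and 6.32 in tip and 5.83 and 5.93 in stalk, against 5.57 and 5.82 in mesenchyme. It did not separate tip from mesenchyme (0.37, 95% confidence interval -0.07 to 0.81, limma adjusted p = 0.292). The dimmest, 1434449_at, stood at 5.58 and 4.69 in tip and 4.72 and 4.52 in stalk, against 2.86 and 3.12 in mesenchyme. On it every bud array was above every mesenchyme array, by 2.15 ± 0.27 in tip (adjusted p = 0.00151) and 1.63 ± 0.27 in stalk (adjusted p = 0.0171), both adjusted over all probe sets. The third, 1425382_a_at, stood at 4.95 and 5.15 in tip and 4.81 and 4.45 in stalk, against 4.06 and 4.08 in mesenchyme. Its difference was 0.98 ± 0.16 in tip against mesenchyme (adjusted p = 0.00632) and 0.56 in stalk against mesenchyme (adjusted p = 0.174). Both dimmer probe sets lay below the array medians in every sample except 1 tip array of 1434449_at, which was at 5.58.

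Over all 16 probe sets of the 10 genes, 4 were higher in stalk than in mesenchyme and none lower, where 3.16% of all probe sets were called in either direction. In tip against mesenchyme 5 were higher and 1 lower (10.3% of all probe sets called), and in tip against stalk 2 were lower (6.27%).

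**Figure D3:**
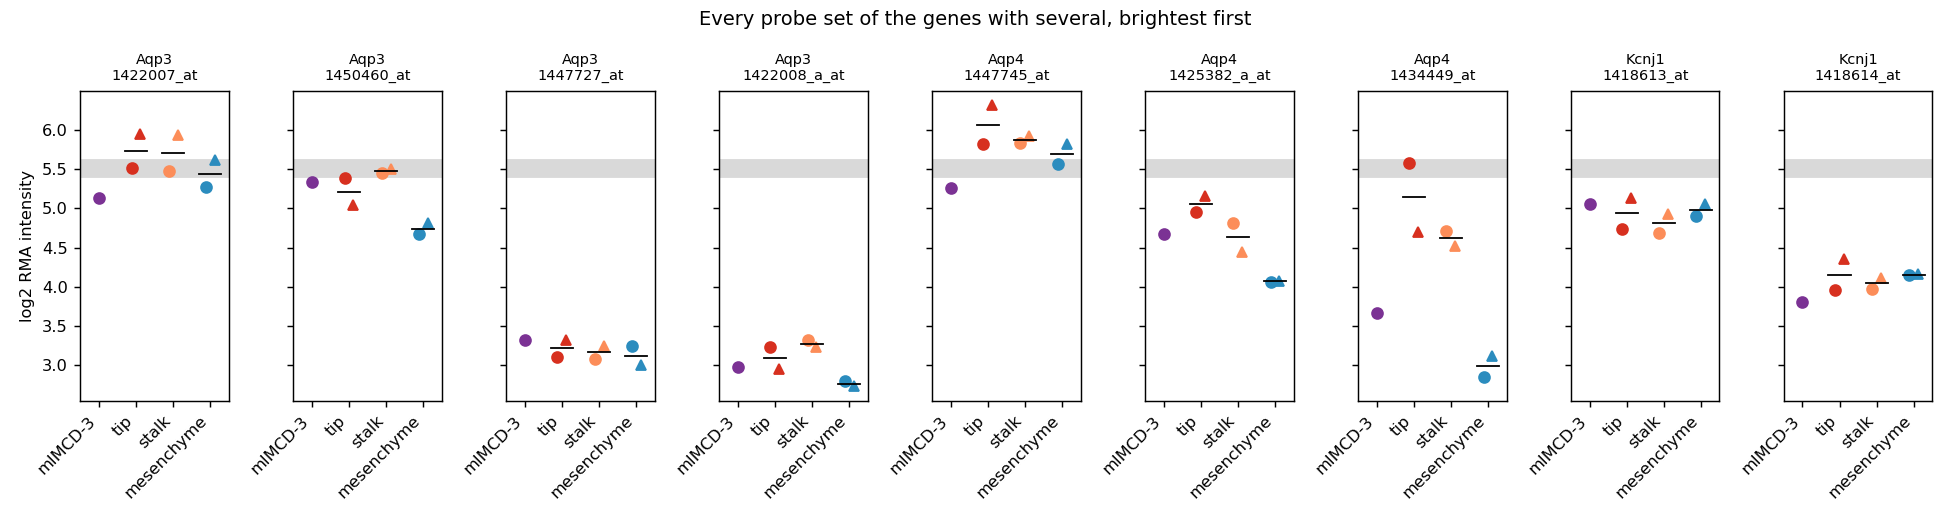
Every probe set of Aqp3, Aqp4 and Kcnj1 on each array, as log2 intensity, with mIMCD-3 on the left, then tip, stalk and mesenchyme. Circles are replicate 1 and triangles replicate 2. The dimmest Aqp4 probe set separates bud from mesenchyme and the brightest does not.

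Avpr2 encodes the vasopressin V2 receptor, whose signal through cyclic AMP brings Aqp2 to the cell surface. It was higher in tip than in mesenchyme. Its levels were 6.43 and 6.62 in tip and 6.09 and 6.12 in stalk, against 5.31 and 5.78 in mesenchyme. The 3 tissues followed in that order without overlap. Avpr2 was 1.98-fold higher in tip than in mesenchyme, by 0.98 ± 0.18 (SE, n = 2 arrays per group, limma adjusted p = 0.00719). Mesenchyme replicate 1 lay below its array median and replicate 2 little above it, so this fold rests on a level that cannot be told from background. Stalk exceeded mesenchyme by 0.56 ± 0.18, which did not pass the test (adjusted p = 0.168) but did with the replicate number as a block (adjusted p = 0.0279). Without mesenchyme replicate 1 the difference from mesenchyme was 0.32 in stalk and 0.75 in tip. Tip exceeded stalk by 0.42 ± 0.18 (adjusted p = 0.216).

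Kcnj1 encodes ROMK, the channel that secretes potassium across the apical membrane of principal cells. It stood at 4.74 and 5.14 in tip and 4.68 and 4.93 in stalk, against 4.90 and 5.05 in mesenchyme, below the median on all arrays. The tissues overlapped, and its differences were -0.17 in stalk against mesenchyme, -0.037 in tip against mesenchyme and 0.13 in tip against stalk. Its second probe set stayed between 3.80 and 4.35.

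The mIMCD-3 line was compared by size alone, because 1 array allows no test. Of the 10 genes, 4 were lower by at least 1 log2 unit in mIMCD-3 than in the mean of the 4 bud arrays and none was higher, where 9.33% of all genes were lower and 9.75% higher by that size. Their median difference was -0.65, beside -0.053 over all genes. With the arrays centred on their medians, the all-gene median was 0.112, and the same count of 4 lay at least 1 unit lower.

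The enzyme gene Hsd11b2 had the widest gap among the 10 genes. It stood at 5.003 in mIMCD-3, against 9.54 ± 0.80 in the bud (SD, n = 4 arrays), a 23.2-fold lower intensity, and its mesenchyme level was 9.76 and 9.69. Scnn1g stood at 5.12 in mIMCD-3 against 7.58 ± 0.26 in the bud (5.50-fold lower), and Scnn1b at 5.03 against 6.94 ± 0.25 (3.76-fold lower). Fxyd4 stood at 5.78 in the line against 7.04 ± 0.70 in the bud (2.40-fold lower). That bud mean joins unlike parts, 6.44 in tip and 7.64 in stalk, and the tip mean alone was within 1 log2 unit of the line. The SDs of Hsd11b2 and Fxyd4 include the difference of tip from stalk. Hsd11b2, Scnn1g and Scnn1b lay below the median of the mIMCD-3 array, so their folds rest on a level that cannot be told from background. Fxyd4 lay only a little above that median, which was 5.39.

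On their brightest probe sets, the other genes of the set stayed within 1 log2 unit of the bud. Avpr2 stood at 6.38 in mIMCD-3, a difference of 0.065 from the bud mean, and lay 0.84 above the mesenchyme mean. Scnn1a was at 6.22, a difference of -0.20 from the bud. The duct water channel Aqp2 was at 5.15 in the line, -0.018 from the bud, and Kcnj1 was at 5.06, 0.18 from the bud. Aqp3 and Aqp4 were at 5.13 and 5.25, with differences of -0.59 and -0.72, or -0.17 and -0.70 as the mean of their probe sets. Their probe sets were unlike each other here too. The dimmest of Aqp4, 1434449_at, was at 3.67 in the line, against means of 5.14 in tip and 4.62 in stalk. Aqp3 on 1450460_at was at 5.34 in the line, against 5.21 in tip and 5.47 in stalk. Against mesenchyme, 1 gene of the 10 was lower in mIMCD-3 by at least 1 unit, Hsd11b2 at -4.72, and none was higher (9.78% and 11.2% of all genes).

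Genes of the surrounding pathways were counted in 6 lists with 64 distinct measured genes. The counts of every list stand beside these shares of all genes. In tip against stalk 2.86% were higher and 6.97% lower (8.92% and 11.7% with the replicate block). In stalk against mesenchyme 4.3% were higher and 1.24% lower (6.77% and 3.17% with the block). In tip against mesenchyme 7.38% were higher and 8.37% lower (11.2% and 12.8% with the block). In the list of mineralocorticoid response and WNK kinase genes, 12 of 13 were measured. In tip against stalk none was higher and 4 were lower, in stalk against mesenchyme 1 was higher and 1 lower, and in tip against mesenchyme 1 was higher and 4 lower. The medians were -0.20, 0.037 and -0.080. With the replicate block, 5 were lower in tip than in stalk and 5 lower in tip than in mesenchyme. The glucocorticoid receptor gene Nr3c1 averaged 6.87 in tip and 8.10 in stalk, against 7.56 in mesenchyme, with a difference of -1.23 in tip against stalk (limma adjusted p = 0.00342). Its difference of 0.54 in stalk against mesenchyme passed only with the replicate block (adjusted p = 0.0173, and 0.172 without), where the count higher in stalk was 3. Sgk1, the kinase through which aldosterone spares ENaC from removal, averaged 6.86 in tip and 8.59 in stalk, against 8.95 in mesenchyme, and was lower in tip than in both. Nedd4l, the ubiquitin ligase that removes ENaC, averaged 8.80 in tip and 8.78 in stalk, against 7.47 in mesenchyme, and was higher in both bud parts. Wnk4, a kinase of distal salt transport, averaged 5.81 in tip and 6.11 in stalk, against 6.72 in mesenchyme, and was lower in both. The differences of Nr3c1 and Sgk1 between tip and stalk ran with the stroma marker sums given above, whose part was not tested.

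In the list of vasopressin, cyclic AMP and Aqp2 trafficking genes, all 18 were measured. In tip against stalk 1 was higher and 3 lower (2.86% and 6.97% of all genes). In stalk against mesenchyme 2 were higher and none lower (4.3% and 1.24% of all genes). In tip against mesenchyme 3 were higher and 3 lower (7.38% and 8.37% of all genes). The medians were -0.20, 0.020 and -0.18. With the replicate block, 2 were higher and 6 lower in tip than in stalk, and 4 were higher in stalk than in mesenchyme. In tip against mesenchyme 3 were then higher and 4 lower. Avpr1a, the V1a vasopressin receptor gene, averaged 4.77 in tip and 6.80 in stalk, against 4.78 in mesenchyme. It was high on both stalk arrays and at the same low level elsewhere, with differences of -2.03 in tip against stalk and 2.02 in stalk against mesenchyme (limma adjusted p = 0.000142 and 0.000185). Myo5b, a motor of recycling vesicles, averaged 8.61 in tip and 7.76 in stalk, against 4.87 in mesenchyme, and passed the test in all 3 comparisons. The prostaglandin receptor gene Ptger4 averaged 5.63 in tip and 7.74 in stalk, against 7.94 in mesenchyme. The phosphodiesterase gene Pde4d averaged 4.72 in tip and 6.49 in stalk, against 6.65 in mesenchyme. Ptger4 and Pde4d were lower in tip than in both other tissues, as were the 6 stroma markers, whose part was not tested.

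Among 6 channel-activating protease genes, 3 were higher in stalk than in mesenchyme, 3 were higher in tip than in mesenchyme and 1 was higher in tip than in stalk, with none lower and medians of 1.20, 1.77 and 0.33. Prss8, which encodes the ENaC-cleaving protease prostasin, averaged 9.07 in tip and 8.38 in stalk, against 5.21 in mesenchyme. Its difference of 0.69 in tip against stalk passed with the replicate block (adjusted p = 0.0454) and not without (0.111), which made the count higher in tip 2. St14, the gene of matriptase, averaged 8.65 in tip and 7.68 in stalk, against 5.46 in mesenchyme, and was higher in tip than in stalk by 0.97 (limma adjusted p = 0.0033). Tmprss2, a membrane serine protease gene, averaged 8.04 in tip and 7.90 in stalk, against 4.77 in mesenchyme. In mIMCD-3, Prss8 stood at 6.49, St14 at 9.92 and Tmprss2 at 9.995.

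Of the sodium pump, FXYD and basolateral potassium channel genes, 10 of 11 were measured. In tip against stalk none was higher and 2 were lower, in stalk against mesenchyme 3 were higher and 1 lower, and in tip against mesenchyme 3 were higher and 2 lower, with medians of -0.026, -0.029 and 0.12. With the replicate block, 3 were lower in tip than in stalk and 3 lower in tip than in mesenchyme. The pump's beta subunit gene Atp1b1 averaged 9.80 in tip and 9.87 in stalk, against 7.75 in mesenchyme. The potassium channel gene Kcnj16 averaged 7.40 in tip and 7.90 in stalk, against 5.01 in mesenchyme, and its difference of -0.50 in tip against stalk passed with the replicate block (adjusted p = 0.0187) and not without (0.13). Fxyd1 and Fxyd6 are relatives of Fxyd4. Fxyd1 averaged 6.68 in tip and 7.69 in stalk, against 7.78 in mesenchyme. Fxyd6 averaged 7.79 in tip and 8.92 in stalk, against 10.31 in mesenchyme. Both were lower in tip than in stalk, as Fxyd4 was, with differences of -1.02 and -1.13 (limma adjusted p = 0.00862 and 0.00258). Unlike Fxyd4, neither was higher in stalk than in mesenchyme. The part of the stroma cells in these differences was not tested. Of 9 other aquaporin and urea transporter genes, none was called by limma in any of the 3 comparisons, with medians of 0.20, -0.065 and 0.088. At an unadjusted p under 0.05 in limma, 1 was higher and 0 lower in tip against stalk. The counts were 0 and 0 in stalk against mesenchyme, and 0 and 0 in tip against mesenchyme. No share of all genes is given at that threshold. With the replicate block, 2 were higher in tip than in stalk and 1 was higher in tip than in mesenchyme.

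Of the transcription factors of duct principal cells, 9 of 10 were measured, and 9 of 9 were higher in stalk than in mesenchyme, with a median of 2.16. In tip against mesenchyme 7 were higher and none lower, and in tip against stalk 2 were higher and 2 lower. The median was 1.74 in tip against mesenchyme and 0.067 in tip against stalk. With the replicate block, 3 were higher and 2 lower in tip than in stalk. Tfcp2l1, a regulator of duct cell identity, averaged 9.79 in tip and 9.72 in stalk, against 4.28 in mesenchyme. Gata3 averaged 9.20 in tip and 8.30 in stalk, against 4.57 in mesenchyme. The Grainyhead factor gene Grhl2 averaged 9.78 in tip and 8.66 in stalk, against 5.56 in mesenchyme. Elf5, an ETS factor gene, averaged 6.95 in tip and 7.15 in stalk, against 4.07 in mesenchyme. In mIMCD-3 Grhl2 stood at 10.3, Tfcp2l1 at 7.003, Elf5 at 4.67 and Gata3 at 4.48.

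**Figure D4:**
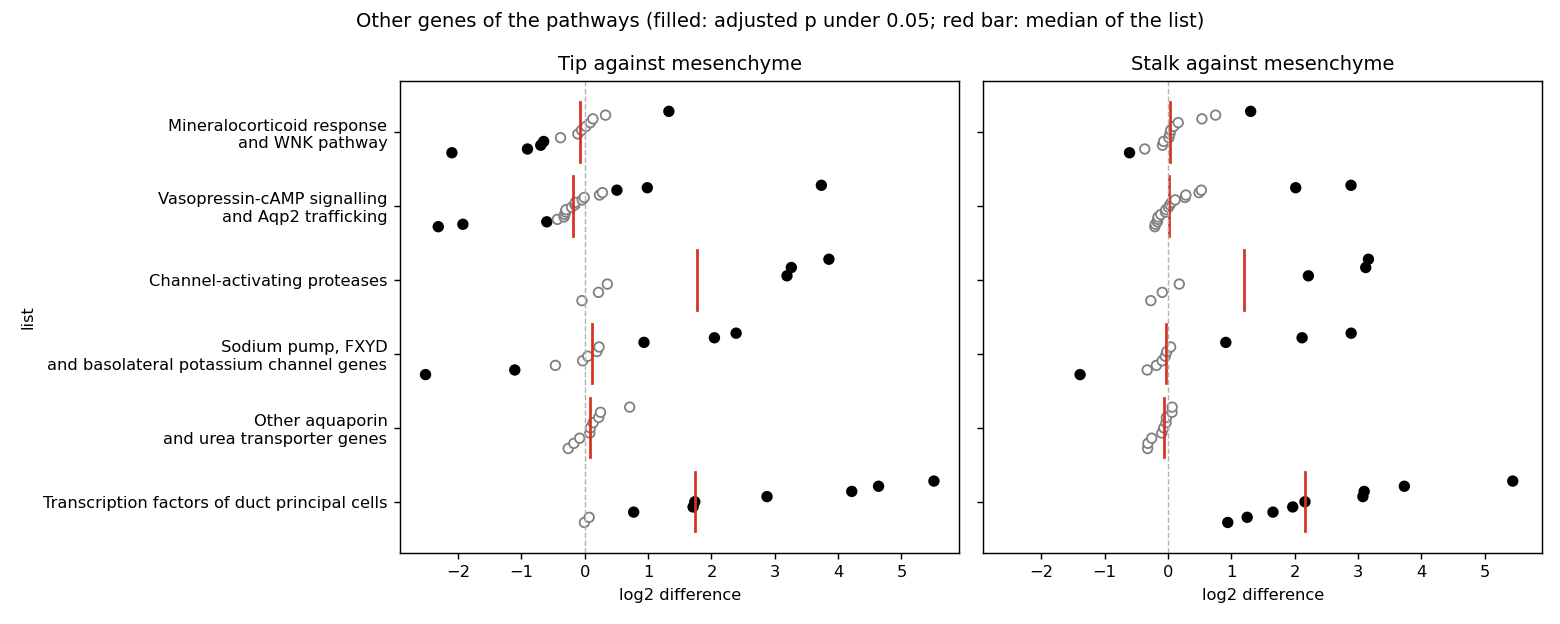
Log2 difference of every measured gene of the 6 pathway lists, tip against mesenchyme on the left and stalk against mesenchyme on the right. Each point is 1 gene, filled where it passed the test. The transcription factors lie above 0 in stalk, 9 of 9, while no gene of the other aquaporin and urea transporter list passed the test without the replicate block.

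For the 4 transport genes whose group means spanned at least 1 log2 unit, the genes most like them over the 7 arrays were found by the root mean square difference of profiles centred on their means. Scnn1g (span 3.15) was closest to Elf5 at 0.259, then Prss8 at 0.311 and Slc7a8 at 0.314. Scnn1b (span 1.94) was closest to Spink8 at 0.184, Rab17 at 0.220 and Galnt18 at 0.223. Hsd11b2 (span 5.21) was closest to Fbln1 at 0.152, Dipk2a at 0.168 and Tspyl3 at 0.175. Fxyd4 (span 1.86) was closest to Rhcg at 0.204, Dkk3 at 0.223 and Dpp6 at 0.294. Avpr2 fell just short, with a span of 0.98. Rhcg was also the 1 gene called among the 6 measured intercalated cell markers without the replicate block, at 5.87 and 6.04 in tip and 6.77 and 6.82 in stalk, against 5.04 and 5.39 in mesenchyme. With the block, 2 of these markers were higher in stalk than in mesenchyme, and in tip against stalk 1 was higher and 2 were lower. In that fit 6.77% of all genes were higher in stalk than in mesenchyme. In tip against stalk 8.92% were higher and 11.7% lower.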

How the data were processed

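The authors deposited linear intensity values (5.08 to 19587), computed by robust multichip analysis (RMA) over all 7 arrays together, per the submitters' processing notes and the series' design text. The RMA software is not given in the sources used here. RMA equalises the arrays, gives no detection calls and compresses the folds of dim genes. The values were converted to log2 here. Symbols follow the platform annotation, and probe sets listing several genes were left out. Each gene was read from the probe set of highest average level, without a filter on dim genes.

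The tissue arrays were fitted in limma 3.58.1 (R 4.3.3) with group means as coefficients, which leaves 3 residual degrees of freedom, and tests were two-sided. Precision is limited by 2 arrays per group: the standard deviation of replicate 1 minus replicate 2 over all probe sets was 0.35 in tip, 0.19 in stalk and 0.26 in mesenchyme. On tip replicate 2 the bioB spike controls averaged 7.74, against 8.56 to 8.81 on the other tissue arrays. The labels number the replicates in each tissue. Deviations of same-numbered arrays correlated at 0.43 between tip and stalk, 0.57 between tip and mesenchyme and 0.39 between stalk and mesenchyme. The main fit did not use the replicate number, which entered as a block only in an alternative fit (2 residual degrees of freedom). Alternatives also changed the centring, the dim filter, the choice of probe set, the variance model and the arrays left out. The script was tested on simulated data.

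All 10 genes are named. From each pathway list, at most 4 genes called in at least 1 tissue comparison are named, those with the largest difference. Foxa1 and Gata2 are named beyond this rule, after their values were seen. The genes, lists and rules were chosen with earlier results of these data known. Listed genes without a measured value were not analysed here. Promoter windows are from RefSeq for GRCm38.p6, where 7 of the 10 genes have one. Plots were made in Python 3.11.15 (matplotlib 3.10.9).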

Additional observations from a re-analysis of the deposited data

Results flagged for a closer look

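Hsd11b2 and Fxyd4 stood out because tip and stalk differed from each other in their distance to mesenchyme, tested as the contrast of tip against stalk in limma. Hsd11b2 was lower in tip than in mesenchyme and not lower in stalk, and the difference between these effects was -1.36 (adjusted p = 0.000937). Fxyd4 was higher in stalk than in mesenchyme, and tip lay below stalk by -1.20 (adjusted p = 0.00213). Both kept their sign and passed the test in every alternative run, each tissue array left out included. The part of stroma cells, whose 6 markers were all lower in tip, was not tested.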

How the results depend on the processing

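The count of transport genes higher in stalk than in mesenchyme was 5 with the replicate number as a block, against 3 without, as Hsd11b2 and Avpr2 were added. It was 3 to 4 with 1 array left out, as was the count higher in tip than in mesenchyme. The block raised all-gene counts too: tip against stalk to 1623 higher and 2131 lower (521 and 1268 without), stalk against mesenchyme to 1231 and 577 (782 and 225), and tip against mesenchyme to 2037 and 2331 (1342 and 1523). With 1 array left out, these counts ranged from 197 to 769 and 724 to 1789, from 427 to 922 and 92 to 316, and from 899 to 1508 and 987 to 1927. A trended, robust variance model called 890 higher in tip than in stalk and 354 lower in stalk than in mesenchyme. Over all probe sets, the higher and lower counts were 772 and 2054, 1128 and 294, and 2154 and 2487. The count higher in mIMCD-3 than in mesenchyme was 1 with arrays centred on their medians and 1 without mesenchyme replicate 2 (0 to 1 over arrays left out), against 0; the gene is Avpr2. Aqp4, as the mean of its probe sets, was called in stalk (0.79, adjusted p = 0.00958) and in tip (1.17, adjusted p = 0.000503) against mesenchyme, and in tip without tip replicate 1 (0.62, adjusted p = 0.043). Hsd11b2 in stalk against mesenchyme (0.50) passed with a trended, robust variance (adjusted p = 0.0117), with the 2 groups alone and without either tip array (0.0429 each), and Fxyd4 in tip against mesenchyme without the dimmest 40% of genes (0.0387). Some uncalled differences changed sign with 1 array left out. In tip against stalk they ranged from -0.0319 to 0.162 for Scnn1a, -0.22 to 0.33 for Scnn1b, -0.20 to 0.26 for Aqp3, -0.0626 to 0.44 for Aqp4 and -0.0714 to 0.33 for Kcnj1, and Aqp3 was -0.0899 as the mean of its probe sets. In stalk against mesenchyme they ranged from -0.11 to 0.13 for Scnn1a and -0.30 to 0.067 for Aqp2. In tip against mesenchyme they ranged from -0.0494 to 0.19 for Scnn1a, -0.11 to 0.31 for Aqp2 and -0.24 to 0.16 for Kcnj1. The cause was not tested. Dim signals limit Aqp2, Kcnj1 and Aqp3 in all samples.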

Other observations

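Among the transcription factors of duct principal cells, Foxa1 and Gata2, chosen after their values were seen, followed the stalk pattern of Avpr1a. Foxa1 stood at 4.57 and 5.04 in tip and 7.09 and 6.86 in stalk, against 4.90 and 4.72 in mesenchyme, and at 11.80 in mIMCD-3. Gata2 stood at 8.37 and 8.36 in tip and 10.16 and 10.38 in stalk, against 8.27 and 8.32 in mesenchyme, and at 5.51 in mIMCD-3. Both were lower in tip than in stalk, by -2.17 and -1.90 (limma adjusted p = 0.000313 and 0.000124).

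Replicate 2 was higher than replicate 1 in all 3 tissues for 5 of the 10 transport genes (Scnn1a, Aqp3, Aqp4, Avpr2 and Kcnj1). Over all genes this held for 24.7%, and it held for 43% of the dimmer and 6.5% of the brighter 50% of genes. Replicate 1 was higher in all 3 tissues for 56.7% of the brighter genes.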
